A study of Mus musculus with 11 samples.

Results

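The 10 genes described here encode the core of mitochondrial fatty acid oxidation and its link to the respiratory chain: Cpt1a, Cpt2, Acadvl, Acadl, Acadm, Hadha, Hadhb, Etfa, Etfb and Etfdh. They were chosen by name, with earlier results of these data known, and each was found once among the 37583 Ensembl gene IDs counted. RNA was sequenced from 11 lines of mouse granulocyte-monocyte progenitors (GMPs), made from C57BL/6 fetal liver at embryonic day 15.5 and each grown from a single cell. All 11 carried ER-Hoxb8, an estrogen-dependent Hoxb8 fusion protein that keeps progenitors immature in 0.5 uM beta-estradiol, and all were fed stem cell factor at about 50 ng/ml. The 6 wild-type (WT) clones and the 5 Taz knockout (KO) clones differ in tafazzin, the enzyme that remodels cardiolipin of the inner mitochondrial membrane, and the question is how these genes differ when tafazzin is missing. Every line is 1 clone, the cells are arrested progenitors, and the clone names carry numbers (1 and 2 in WT, 3 and 4 in KO) that the sources used here do not explain. Clone values below follow the order WT 1A, 1B, 1C, 2D, 2E, 2F, then KO 3H, 3I, 4J, 4K, 4L. Nothing says that clones of 1 number came from separate cultures, so the p-values speak of variation among these clones alone.

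Fatty acids enter mitochondria as carnitine esters. Carnitine palmitoyltransferase 1 on the outer membrane makes the ester, and carnitine palmitoyltransferase 2 on the inner membrane turns it back into acyl-CoA. In the matrix, acyl-CoA dehydrogenases of different chain-length preference start each round, and the trifunctional protein, built from the products of Hadha and Hadhb, carries out the later steps on long chains. The dehydrogenases hand their electrons to electron transfer flavoprotein (ETF, from Etfa and Etfb), and ETF dehydrogenase (from Etfdh) passes them to ubiquinone in the inner membrane.

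Reads counted in genes ran from 21966954 to 27431544 per WT library and from 19778119 to 23658158 per KO library. Taz stood at 39.1 ± 2.54 CPM (SD, n = 6; CPM is a read count scaled to the size of its library) in WT and 3.23 ± 0.68 CPM (SD, n = 5) in KO clones, so all 11 libraries matched their labels. Progenitor markers were taken as a sum of 9 genes (Mpo, Elane, Ctsg, Prtn3, Kit, Cd34, Cebpa, Gfi1 and Myb). The sum was high in both genotypes, at 13702 to 22760 CPM in WT and 12797 to 20298 CPM in KO clones. Mpo was its largest part, at 5847 to 13248 CPM in WT and 5347 to 12057 CPM in KO clones. Elane was far lower, at 23.3 to 825 CPM in WT and 2.26 to 147 CPM in KO clones. WT clone 2D stood apart in 9 late neutrophil markers (S100a8, Ltf, Ngp and others), which summed to 1519 CPM in it, against 19.1 to 107.6 CPM in the other WT clones and 14.96 to 141.1 CPM in KO clones. Hepatocyte markers summed to at most 1.95 CPM, with Ttr, Fgb and Serpina1a at 0 in all libraries. B-lymphoid markers (6 genes, Pax5 at 0 in all libraries) summed to 26.3 to 69.1 CPM in WT and 5.27 to 28.02 CPM in KO clones, with Ebf1 at 22.9 to 42.2 and 3.56 to 26.6 CPM. None of the marker genes was called between genotypes.

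The stretch of DNA before the Etfdh start is shown because Etfdh was the one gene of the 10 that passed the test, and the Hadhb one because it covers most of the stretch between the starts of both trifunctional protein genes. Both are RefSeq windows of build GRCm38.p6, from 250 bases before to 50 after the start. The Etfdh window is chr3:79628718-79629017 on the minus strand and the Hadhb window chr5:30155003-30155302 on the plus strand. In GENCODE M21 (GRCm38) both Etfdh, which reaches to 79629500, and Hadha, which reaches to 30155162, start farther upstream than in RefSeq, so that the whole Etfdh window lies inside the gene annotated there. Capitals mark exact matches to the motifs named after them.
Etfdh: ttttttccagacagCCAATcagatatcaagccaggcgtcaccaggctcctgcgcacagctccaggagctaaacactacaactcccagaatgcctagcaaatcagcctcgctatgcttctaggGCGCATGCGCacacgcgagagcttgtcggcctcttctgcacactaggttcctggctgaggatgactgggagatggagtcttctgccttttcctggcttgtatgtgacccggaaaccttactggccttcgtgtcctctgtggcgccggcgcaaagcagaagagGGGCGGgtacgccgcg
Hadhb: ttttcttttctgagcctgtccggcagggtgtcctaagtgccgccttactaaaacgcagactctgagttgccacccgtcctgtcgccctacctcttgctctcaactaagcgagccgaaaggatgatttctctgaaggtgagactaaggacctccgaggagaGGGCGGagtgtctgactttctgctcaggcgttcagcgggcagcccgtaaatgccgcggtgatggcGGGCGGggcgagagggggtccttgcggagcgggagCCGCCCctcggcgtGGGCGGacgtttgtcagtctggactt
All 10 genes had a window in that table. Searched on both strands were the NRF1 site (the palindrome that stands in the middle run of capitals of the Etfdh window), the estrogen-related receptor element TCAAGGTCA, the PPAR element (AGGTCA repeated after 1 free base), the ATF4-CEBP element TGATGCAAT, the cAMP response element TGACGTCA, the E-box CACGTG, the CCAAT box CCAAT and the GC box GGGCGG. The Etfdh window held 1 NRF1 site, whose first base lay at -128 from the start, and none of the other 9 windows held one. Of all 32851 promoter windows, 0.971% held it. The gene Nrf1 had 67.1 CPM in WT and 65.3 CPM in KO clones (log2 fold change -0.04 ± 0.03, SE; edgeR adjusted p = 0.558). Whether the site bears on the Etfdh level was not tested. GC boxes were present in 7 of the 10 windows (35.7% of all windows) and CCAAT boxes in 4 (37.4% of all windows). The letters of the other 5 motifs were absent from all 10 windows, and their shares among all windows were 0.423% (estrogen-related receptor), 0.04% (PPAR), 0.192% (ATF4-CEBP), 1.79% (cAMP response) and 7.15% (E-box). No match overlapped a match to another motif in the 2 windows shown. The Hadha and Hadhb windows face away from each other, share 228 bases and leave 272 bases between their RefSeq starts.

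Etfdh fell in KO clones, and no other gene of the 10 passed the test in either direction. ETF dehydrogenase is an iron-sulfur flavoprotein, and people who lack it or ETF have multiple acyl-CoA dehydrogenase deficiency. The 6 WT clones had 76.1, 65.9, 75.7, 67.8, 73.2 and 77.2 CPM of Etfdh. The 5 KO clones had 60.2, 58.4, 59.9, 54.1 and 62.5 CPM. Every KO clone lay below every WT clone, with 1B and 2D the lowest WT and 4K the lowest KO clone. The means were 72.7 ± 4.71 (SD, n = 6) and 59.03 ± 3.15 CPM (SD, n = 5), so that KO clones held 81.2% of the WT level. The log2 fold change was -0.30 ± 0.05 (SE; 95% interval -0.42 to -0.18), and edgeR's quasi-likelihood test gave it an adjusted p of 0.0121 (Benjamini-Hochberg over the 11900 genes tested). Between 1149 and 1988 reads per library lay behind these values. The B-lymphoid marker sum also tended to the low side in KO clones, with overlapping ranges, and across all 11 clones its r with Etfdh was 0.41 (permutation p = 0.222, adjusted p = 0.646 over 70 relations of the 10 genes with 7 marker lists) and rho 0.45 (permutation p = 0.164, adjusted p = 0.460). With genotype means removed r was -0.68, and without KO 4L and WT 2D it was 0.51. Another gene on the opposite strand, 4930579G24Rik (492 to 852 reads), shares 278 exon bases with Etfdh in the GRCm38 annotation, none of them in the principal Etfdh transcript. The call held without any 1 clone (highest adjusted p = 0.0408), WT 2D included. With counts summed per title number the call was barely kept (edgeR adjusted p = 0.0495). It was lost when all clones of title number 1, 2, 3 or 4 were left out (adjusted p = 0.0992, 0.0610, 0.110 and 0.219), with log2 fold changes between -0.31 and -0.29.

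**Figure D1:**
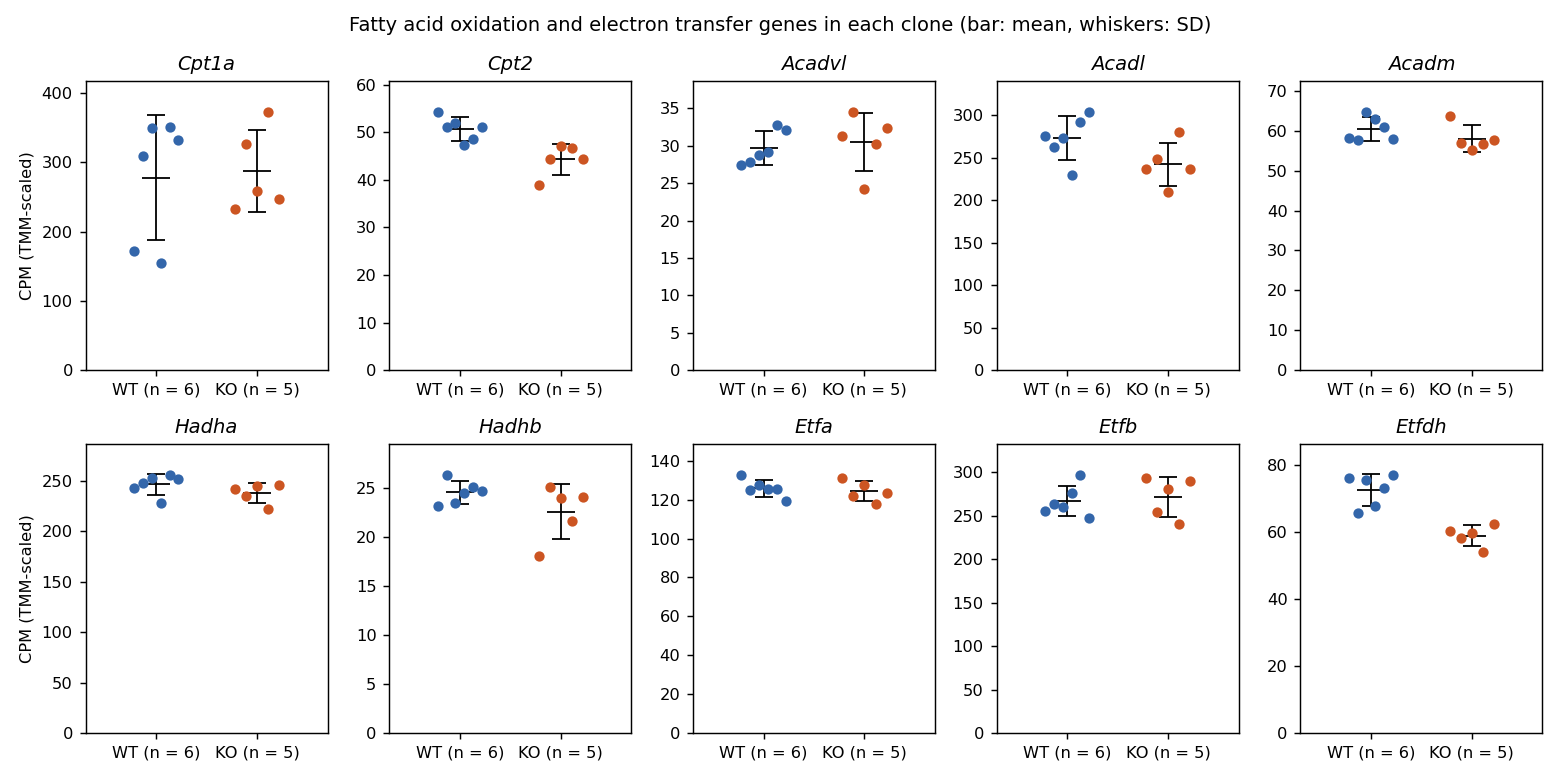
CPM of each of the 10 genes (y axis, starting at 0) in the 6 WT and 5 KO clones, with 1 point per clone, a bar at the mean and whiskers of 1 SD. The Etfdh points of the genotypes do not overlap, at 65.9 to 77.2 CPM in WT and 54.1 to 62.5 CPM in KO, while Cpt1a spreads from 155 to 373 CPM over all clones.

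The count of 1 gene lower and 0 higher among 10 is to be read against all genes tested, of which 2.29% were called lower and 2.76% higher (5.05% in either direction). Because the 10 were chosen with earlier results of these data known, these shares are no test of them as a set. At an unadjusted p under 0.05, 2 of the 10 were lower (Etfdh and Cpt2) and 0 higher, beside 10.3% and 10% of all genes. By adjusted p, DESeq2 called 2 of the 10 lower and 0 higher, beside 5.23% and 5.39% of the genes to which it gave one. For limma-voom the counts were 1 and 0, beside 2.13% and 3.03% of all genes. Fold changes were negative for 7 of the 10, beside 51.6% of all genes, and their median was -0.05 on the log2 scale, beside -0.01 for all genes. The genotypes did not overlap for 2 of the 10, Etfdh and Cpt2, with KO below WT, while this held for 3.02% of all genes tested (5.99% in either direction).

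The partners that feed Etfdh differed little. Etfa, the alpha subunit of ETF, was measured at 133, 125.0, 127, 125, 125 and 119.5 CPM in the 6 WT clones. The 5 KO clones had 131, 122, 127, 118 and 123 CPM of Etfa. The ranges overlapped almost entirely, with a log2 fold change of -0.02 ± 0.04 (SE; 95% interval -0.10 to 0.06; edgeR adjusted p = 0.833). Etfb, the beta subunit, had 248 to 297 CPM in WT and 241 to 294 CPM in KO clones, a log2 fold change of 0.03 ± 0.06 (SE; 95% interval -0.11 to 0.17; adjusted p = 0.854). Within a clone, the Etfdh level per kb of transcript was 0.309 to 0.378 of that of Etfa in WT clones and 0.269 to 0.297 of it in KO clones. This ratio does not depend on library scaling, and its ranges did not overlap. It was not tested, since Etfdh had already been seen to differ.

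**Figure D2:**
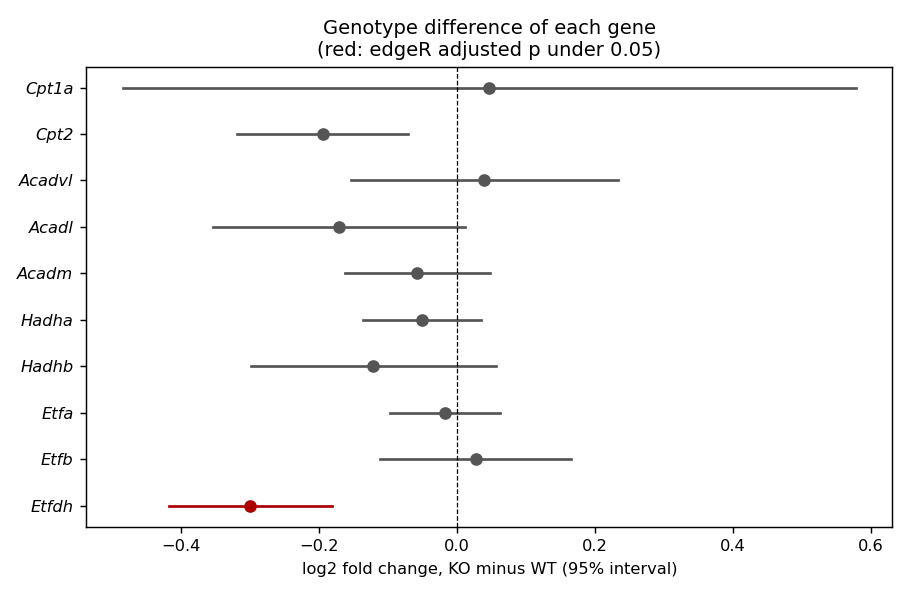
Log2 fold change (x axis, KO minus WT) of each of the 10 genes in edgeR's fit, with its 95% interval for that gene alone, without adjustment for the number of genes. The interval of Etfdh runs from -0.42 to -0.18 and that of Cpt2 from -0.32 to -0.07, while that of Cpt1a, from -0.48 to 0.58, is the widest.

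Of the carnitine palmitoyltransferases, Cpt2 came next to the threshold. Its values were 54.3, 51.1, 52.1, 47.3, 48.6 and 51.1 CPM in WT and 38.9, 44.5, 47.2, 46.7 and 44.3 CPM in KO clones. No KO clone reached the lowest WT clone, but KO 4J at 47.2 and WT 2D at 47.3 CPM were nearly level. KO minus WT was -0.19 ± 0.06 on the log2 scale (SE; adjusted p = 0.0748 by edgeR). Cpt2 passed the threshold in 3 of 27 other settings, with DESeq2 (adjusted p = 0.0165), with the title number as a random block (0.0247) and at equal depth (0.0495), over a range of 0.0165 to 0.424. The block correlation was negative (-0.21), and summing the counts of each title number gave Cpt2 an adjusted p of 0.186.

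Cpt1a, the liver-type enzyme that is the rate-limiting and malonyl-CoA-sensitive step of entry, had the widest spread. In WT clones it stood at 171, 309, 349, 155, 352 and 333 CPM, and in KO clones at 233, 326, 259, 373 and 247 CPM. WT 1A and 2D were thus the lowest of all 11, KO 4K was the highest, and the genotypes overlapped. The highest clone had 2.40 times the level of the lowest, and the coefficient of variation was 32.5% in WT and 20.8% in KO clones. It was 3.42% to 9.48% in WT clones for the other 9 genes. The genotype difference was 0.05 ± 0.24 on the log2 scale (SE; adjusted p = 0.938), with an interval that allows a difference of up to 1.49-fold. Its sign turned without WT 1A (-0.06) or 2D (-0.08) or KO 3I (-0.0016) or 4K (-0.06). The muscle and brain forms were nearly absent, with 4 to 13 reads of Cpt1b and 0 to 3 reads of Cpt1c per library.

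The level of Cpt1a moved with marker sums of other blood cell types across clones. These relations were looked at after the Cpt1a values had been seen, and 70 were computed (10 genes against 7 marker lists, log2 scale, 100000 permutations, Benjamini-Hochberg over the 70). All 4 relations with an adjusted p under 0.05 involved Cpt1a. The progenitor sum, not among the 4, had an r of -0.71 with Cpt1a (permutation p = 0.0166, adjusted p = 0.232). Its rho was -0.75 (permutation p = 0.0102, adjusted p = 0.133), and r was -0.61 without KO 4K and WT 2E (permutation p = 0.0717). With the late neutrophil sum, r was -0.86 (permutation p = 9e-05, adjusted p = 0.0063) and Spearman's rho -0.92 (permutation p = 0.00024, adjusted p = 0.0168) over 11 clones. After the genotype means were removed r was -0.86, and without WT 2D and KO 4K, the clones farthest from the median sum, it was -0.74 (permutation p = 0.0210). Lcn2 was at least 4.53 CPM in WT and 10.7 CPM in KO clones, and Mmp8 at least 11.6 and 3.76 CPM. S100a8 fell to 0.0736 CPM in WT and 0.141 CPM in KO clones. The lowest sums, 19.1 CPM in WT and 14.96 CPM in KO clones, thus came mostly from Lcn2 and Mmp8. With the megakaryocyte sum r was 0.83 (permutation p = 0.00165, adjusted p = 0.0289) and rho 0.75 (permutation p = 0.0114, adjusted p = 0.133), and r was 0.69 without WT 2D and KO 3H (permutation p = 0.0383). Itga2b made up most of the megakaryocyte sum, at 55.6 to 189.5 CPM in WT and 99.1 to 225.5 CPM in KO clones. Pf4 reached 24.9 CPM and Ppbp 0.934 CPM at most. Relations of Cpt1a with single marker genes were not tested.

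With the mast cell and basophil sum r was 0.87 (permutation p = 0.00108, adjusted p = 0.0252) and rho 0.75 (permutation p = 0.0101, adjusted p = 0.133). With the monocyte and macrophage sum r was 0.89 (permutation p = 0.00082, adjusted p = 0.0252) and rho 0.75 (permutation p = 0.0105, adjusted p = 0.133). Both relations rest on WT 1A and 2D, without which r was 0.56 (permutation p = 0.122) and 0.58 (permutation p = 0.0993). Those clones had the lowest sums, 1479 and 1136 CPM of mast cell and basophil markers and 403 and 412 CPM of monocyte markers. The other 4 WT clones had 2622 to 4062 and 949 to 1136 CPM. Cpa3 made up most of the mast cell and basophil sum, at 856 to 3041 CPM in WT and 1805 to 4326 CPM in KO clones, while Fcer1a was at most 0.0736 CPM. Ccr2 made up most of the monocyte sum (363 to 1078 CPM in WT, 700 to 1783 CPM in KO), and Csf1r reached 3.20 CPM at most. In bulk RNA, fewer cells of a type and less RNA per cell cannot be told apart. A setting added after the values were seen used as covariate the mean log2 CPM of the 6 late neutrophil markers, of 9, that were tested. In it the log2 fold change of Cpt1a was -0.10 (edgeR adjusted p = 0.720).

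**Figure D3:**
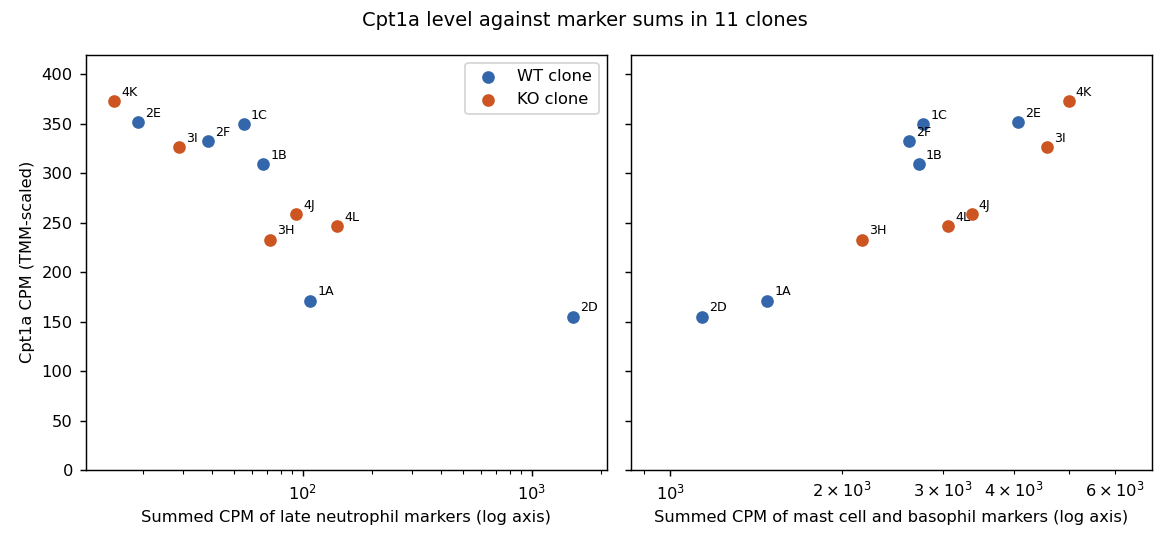
Cpt1a CPM (y axis) against the summed CPM of late neutrophil markers (left, log axis) and of mast cell and basophil markers (right, log axis), with 1 labelled point per clone. WT 2D and 1A, at 155 and 171 CPM of Cpt1a, have the lowest mast cell and basophil sums, and KO 4K, at 373 CPM, has the lowest late neutrophil sum and the highest mast cell and basophil sum.

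The acyl-CoA dehydrogenases act on very long (Acadvl), long (Acadl) and medium chains (Acadm), and none of them passed the test. Acadl had 276, 262, 274, 229, 292 and 304 CPM in WT and 236, 249, 209, 279.9 and 237 CPM in KO clones. Most KO clones lay below most WT clones, but KO 4K exceeded 4 of the 6 and WT 2D fell among the KO values. The log2 fold change of Acadl was -0.17 ± 0.08 (SE; 95% interval -0.35 to 0.01; edgeR adjusted p = 0.276). Acadm had 57.6 to 64.7 CPM in WT and 55.2 to 63.8 CPM in KO clones, and differed by -0.06 ± 0.05 on the log2 scale (SE; adjusted p = 0.545). Acadvl had 27.4 to 32.8 CPM in WT and 24.2 to 34.5 CPM in KO clones, and a log2 fold change of 0.04 ± 0.09 (SE; adjusted p = 0.849). In the GRCm38 annotation 45.02% of the bases of the principal Acadvl transcript lie under exons of Dvl2 on the other strand. The counting ignored strand, so that reads of the pair cannot be told apart there, and the Acadvl value is uncertain.

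Hadha and Hadhb, the alpha and beta subunits of the trifunctional protein, did not pass the test either. Hadha had 228 to 256 CPM in WT and 222 to 246 CPM in KO clones, with a log2 difference of -0.05 ± 0.04 (SE; 95% interval -0.14 to 0.03; edgeR adjusted p = 0.506). Its highest clone had 1.15 times the level of the lowest, and a difference between genotypes beyond 1.10-fold lies outside its 95% interval. Hadhb had 23.2, 26.4, 23.5, 24.5, 25.1 and 24.7 CPM in WT and 18.1, 25.1, 24.0, 21.7 and 24.0 CPM in KO clones. KO 3H was the lowest clone, and the other KO clones overlapped the WT range or lay just under it. The log2 fold change of Hadhb was -0.12 ± 0.08 (SE; adjusted p = 0.439).

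Per kb of transcript the reads assigned to Hadha were 5.12 ± 0.297 (SD, n = 6) times those assigned to Hadhb in WT clones and 5.44 ± 0.792 times (SD, n = 5) in KO clones, although both subunits stand in 1 complex. The Hadhb value is uncertain. Of all 50-base windows of its principal transcript, 62.4% also occur in transcripts of the other genes Gm13910 and Gm9108, and multi-mapping reads carry no gene count in these files. For Hadha that share was 0.655%. Gm13910 itself had 22 to 55 reads per library. Across 11 clones the levels of Hadha and Hadhb had r = 0.26 (permutation p = 0.442, adjusted p = 0.691) and rho = 0.44 (permutation p = 0.184, adjusted p = 0.591). Without KO 4K and WT 2D r was 0.26, and with genotype means removed it was 0.08.

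Pairs of the 10 genes showed no relation that passed correction over the 45 pairs by r or by rho. The smallest permutation p was that of Cpt2 and Etfdh, with r = 0.69 (permutation p = 0.0161, adjusted p = 0.630) and rho = 0.75 (permutation p = 0.0098, adjusted p = 0.441). Without KO 3H and WT 1A its r was 0.72, but with genotype means removed it was 0.06. The genes closest to Etfdh in pattern were sought among 9397 genes of at least 5 CPM, by Pearson's r of log2 CPM over 11 clones after removing genotype means. Stx8 (0.90), Zdhhc17 (0.89) and Ern1 (0.87) had the highest r and Sergef, Rnf4 and Arhgdia the lowest (all -0.85). These values describe likeness within genotypes only. They are the extremes of a ranking of 9397 genes over 11 clones and were not tested. Between genotypes, Ern1 and Rnf4 were called higher in KO clones (log2 fold changes 0.29 and 0.11, edgeR adjusted p = 0.0205 and 0.0446), while Etfdh was lower. Stx8, Zdhhc17, Sergef and Arhgdia were not called.

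Levels could be compared between genes only per kb of the principal transcript in the GRCm38 annotation. Etfb was highest at 299 ± 19.7 CPM per kb (SD, n = 6) in WT clones, followed by Acadl at 142 ± 13.5, Etfa at 90.4 ± 3.09, Cpt1a at 64.5 ± 20.97 and Hadha at 61.3 ± 2.54 CPM per kb. Etfdh at 30.6 ± 1.98, Acadm at 29.5 ± 1.44, Cpt2 at 21.4 ± 1.05, Acadvl at 13.7 ± 1.03 and Hadhb at 11.995 ± 0.565 CPM per kb came after them. Ranges of WT clones overlapped for the neighbours Cpt1a and Hadha, Etfdh and Acadm, and Acadvl and Hadhb. The 6 other neighbouring pairs kept their order in 6 of 6 WT clones. Per kb, the places of Acadvl and Hadhb carry the uncertainty given above. Of the Etfb windows, 67.3% also occur in Gm45233, a gene annotated over the Etfb locus that the count files do not list.

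**Figure D4:**
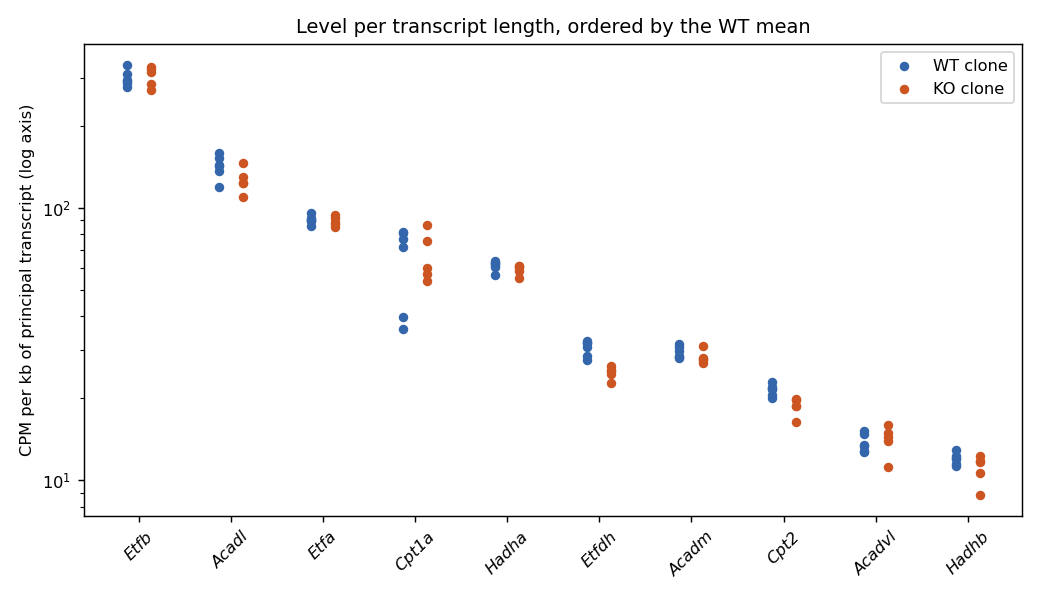
CPM per kb of principal transcript (y axis, log scale) of the 10 genes, ordered by the WT mean, with 1 point per clone. Etfb lies highest, at a mean of 299 CPM per kb in WT clones, and Hadhb lowest at 11.995, while Cpt1a has the widest vertical spread.

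No difference in these genes was detected between clones of different title number within a genotype. In edgeR's test of number 2 against 1 in WT and of 4 against 3 in KO clones, 0 genes of the 11900 were called in either contrast (0% of all genes). At an unadjusted p under 0.05 there were 372 and 161 genes, 0 of the 10 among them. Without robust dispersion 0 were called as well. The largest differences among the 10 were 0.16 for Acadvl in WT and -0.19 for Acadvl in KO clones, on the log2 scale, with SEs of 0.11 and 0.12. Etfdh differed by 0.0036 ± 0.08 between WT numbers and by -0.01 ± 0.09 between KO numbers (SE).

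Genes around the pathway were taken from 10 lists holding 90 further genes with a match, of which 71 were tested. Among the 71, edgeR called 5 lower and 1 higher, and the median log2 fold change was -0.05 (all genes -0.01, with 2.29% called lower and 2.76% higher). The lists were drawn up with earlier results of these data known, so the counts are no test of the pathway against all genes. On leaving out 1 clone the count of lower genes was 2 for KO 4J, 3I and 3H and WT 2F, 1C, 1B and 1A, and 3 for KO 4L and 4K. That of higher genes was 2 for KO 4K and WT 2D and 2E.

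In the carnitine shuttle, 1 of 5 tested genes fell. Crat, which exchanges acetyl groups between CoA and carnitine, had 27.1 to 36.5 CPM in WT and 21.1 to 24.3 CPM in KO clones, with no overlap. The difference was -0.45 ± 0.08 on the log2 scale (SE; adjusted p = 0.0129 by edgeR), and the call held without any 1 clone (highest adjusted p = 0.0416). It was lost with counts summed per title number (0.120) and without title numbers 1, 3 or 4 (0.117, 0.128 and 0.183). The carrier Slc25a20, which moves acylcarnitine across the inner membrane, differed by -0.20 ± 0.06 (log2; adjusted p = 0.101). Of 13 tested genes of fatty acid activation 1 fell. The acyl-CoA synthetase and transporter Slc27a2 had the largest positive log2 fold change of the list, 1.60 ± 0.42 (SE; 2.96 CPM in WT and 9.01 CPM in KO), and did not pass the test (edgeR adjusted p = 0.0529). Acss1, which activates acetate in mitochondria, had 68.8, 73.8, 70.7, 30.0, 60.1 and 80.2 CPM in WT and 28.5, 14.3, 28.4, 37.7 and 22.3 CPM in KO clones. WT 2D, which stood apart in late neutrophil markers, was the one WT clone within the KO range. Acss1 differed by -1.29 ± 0.28 on the log2 scale (SE; adjusted p = 0.0297 by edgeR), and with the late neutrophil markers as a covariate by -1.37 ± 0.28 (SE; adjusted p = 0.0172). The call held only without WT 2D or 2E or KO 4K (adjusted p = 0.00632, 0.0421 and 0.0289) among omissions of 1 clone, and the highest adjusted p of the others was 0.0732. It was lost with counts summed per title number (edgeR adjusted p = 0.0831) and with no filter (0.0605), and held in 14 of 27 other settings.

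Of the 15 tested genes of the beta-oxidation spiral, 0 were called in either direction, and their log2 fold changes ran from -0.18 to 0.19 (median -0.06). Acadl was the most abundant of them. The 4 auxiliary enzymes for unsaturated chains had 0 calls, and Ech1, their most abundant, had a log2 fold change of -0.08 ± 0.04 (SE; adjusted p = 0.311). Among 11 tested dehydrogenases and partners of ETF, Etfdh was the single call. Acad8, of valine breakdown, which also feeds ETF, differed by -0.17 ± 0.05 (log2; adjusted p = 0.0703). None of the 5 genes of riboflavin and FAD supply was called, and the riboflavin kinase Rfk differed by -0.05 ± 0.04 (log2; adjusted p = 0.538). The 4 ketone body genes had 0 calls too, and Oxct1 differed by -0.04 ± 0.05 (log2; adjusted p = 0.700).

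Among 9 other entry points to ubiquinone, 1 was lower. Sdhd, a membrane anchor of succinate dehydrogenase, had 258 to 298 CPM in WT and 223 to 257 CPM in KO clones. Its difference was -0.19 ± 0.05 on the log2 scale (SE; adjusted p = 0.0495 by edgeR). Among omissions of 1 clone the call held only when WT 2E was left out (the others reached 0.122), and the subunits Sdha, Sdhb and Sdhc had log2 fold changes of -0.07, 0.04 and -0.0038.

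Of 11 tested regulators 1 rose. Ncor1, a nuclear receptor corepressor, had 469 to 528 CPM in WT and 549 to 598 CPM in KO clones, a log2 difference of 0.20 ± 0.04 (SE; adjusted p = 0.0135 by edgeR, at most 0.0431 without 1 clone). That call too was lost with counts summed per title number (0.0574) and without title numbers 1, 3 or 4 (0.139, 0.140 and 0.177). Of 4 tested PPAR target genes outside the spiral 2 fell. Ucp2, a carrier of the inner membrane, had 628, 695, 673, 580.0, 723 and 655 CPM in WT and 444, 418, 453, 469.8 and 403 CPM in KO clones. All KO clones lay well under the WT range, with a log2 fold change of -0.59 ± 0.06 (SE; adjusted p = 0.000985). Plin2, which coats lipid droplets, had 88.3 to 110 CPM in WT and 65.8 to 82.4 CPM in KO clones, a log2 difference of -0.32 ± 0.07 (SE; adjusted p = 0.0340 by edgeR). It kept its call only without WT 2D or 2E or KO 4L among omissions of 1 clone, and the highest adjusted p of the others was 0.0809. With counts summed per title number the Plin2 call was lost (edgeR adjusted p = 0.0738), and it held in 14 of 27 other settings.

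The 19 list genes too low to test had at most 33 reads in any library. The receptor Ppara had at most 2 reads and the coactivator Ppargc1a at most 1. Pdk4, Cd36, Fabp4 and Dmgdh had 0 reads in all libraries, which allows up to 0.109 to 0.152 CPM per library (3 counts, counting error only). Ppard and Ppargc1b, relatives of Ppara and Ppargc1a, and the estrogen-related receptor gene Esrra were tested. Ppard, Ppargc1b and Esrra had 13.5, 11.5 and 38.3 CPM in WT clones and log2 fold changes of -0.14 ± 0.15, 0.26 ± 0.11 and 0.17 ± 0.08 (SE; edgeR adjusted p = 0.665, 0.199 and 0.274).

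**Figure D5:**
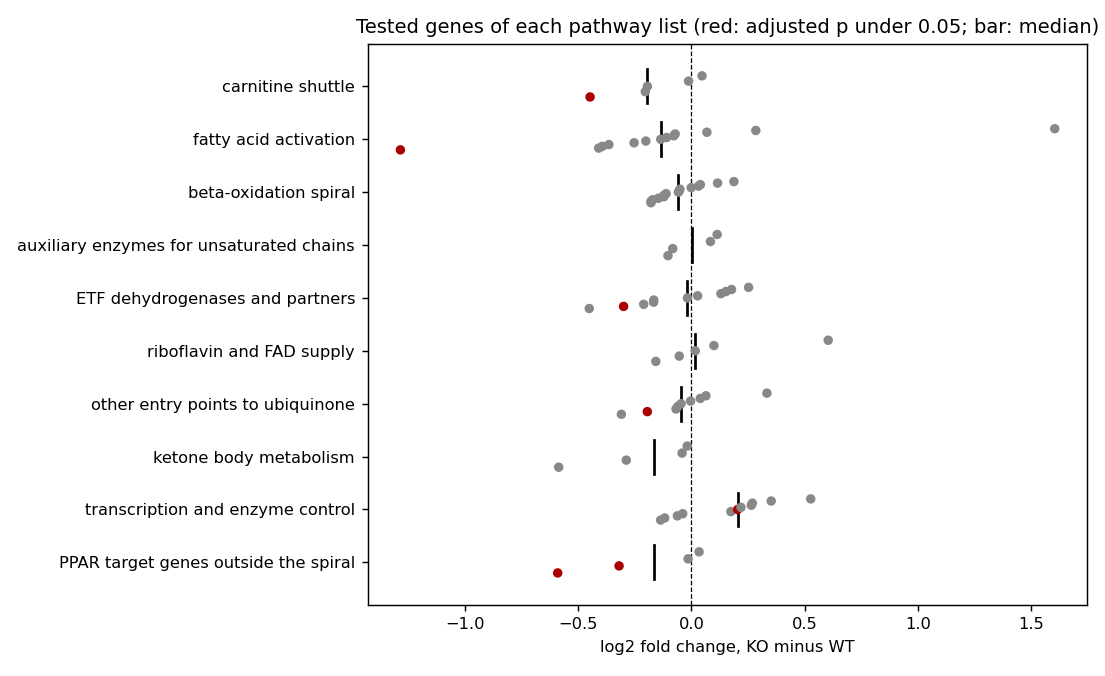
Log2 fold change (x axis, KO minus WT) of every tested gene in the 10 pathway lists, with the median of each list as a bar and genes of adjusted p under 0.05 in red. The red points are Crat, Acss1, Etfdh, Sdhd, Ncor1, Ucp2 and Plin2, and the medians run from -0.19 in the carnitine shuttle to 0.20 among the regulators.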

How the data were processed

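RNA was measured in 11 clonal lines, 6 WT and 5 KO, grouped by their titles. The authors deposited 1 file of raw, not normalized read counts by Ensembl gene for each library. Per the submitters' processing notes the tools were STAR, HTSeq and edgeR (no versions) and the build mm9. Per the labels' protocols, polyA RNA went into strand-specific libraries, but strand was ignored in counting, per the file names. The sources used here give neither read length nor annotation release. Symbols were matched by ID for 32860 of 37583 genes (87.4%), and for all 10 members and 100 of 101 list symbols, in GENCODE M21 (GRCm38), used also for lengths, overlaps and shared 50-base windows. Reads in no gene were 6.07% and 6.59% and ambiguous reads 2.85% and 2.79% of assigned and these reads together in WT and KO, and stayed out of library sizes. So did alignments that were not unique, with means of 83.6 per 100 gene counts in WT and 86.3 in KO.

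KO and WT were compared by the robust quasi-likelihood test of edgeR (TMM, filterByExpr, Benjamini-Hochberg over 11900 genes, threshold 0.05). CPM was computed on TMM-scaled library sizes, with a prior count of 2 for log2 CPM. Standard errors are the log2 fold change over the root of F. Principal transcripts are those of best APPRIS rank, then longest. The code of the tests was also run on simulated counts. These were drawn independently for each library, so they cannot speak to relatedness among clones. Intervals cover 95%. No 2 libraries of 1 genotype agreed within sampling noise. Software was Python 3.11.15 (matplotlib 3.10.9, pandas 2.3.3, numpy 2.4.6) and R 4.3.3 (DESeq2 1.42.0, limma 3.58.1, edgeR 4.0.16).

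The members and lists were chosen with earlier results of these data known. Named are Taz, all members, called list genes, the most abundant gene of lists without a call, and 3 genes at each end of likeness to Etfdh. Slc25a20, Slc27a2, Acad8, Sdha, Sdhb, Sdhc, Cpt1b, Cpt1c, Ppara, Ppargc1a, Ppard, Ppargc1b, Esrra, Nrf1, Pdk4, Cd36, Fabp4 and Dmgdh were chosen after their values were seen. Alternatives were RLE and upper-quartile scaling, no and stricter filters (1 CPM), DESeq2, limma-voom, non-robust dispersion, the title number as block or sum, omission of clones, title numbers or the 10 most abundant genes, and, added after seeing the data, equal depth (19778119 reads) and a late neutrophil covariate.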

Additional observations from a re-analysis of the deposited data

How the results depend on the processing

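Etfdh was lower in all 27 other settings (log2 fold change -0.33 to -0.27) and passed the threshold in 23, the exceptions being the omissions of a whole title number. In members called lower the count was 2 with DESeq2, with the title number as a random block and at equal depth (Cpt2 added), and 0 without title number 1, 2, 3 or 4, while without any 1 clone it was 1, and 0 members were called higher in any setting. Among all genes, 328 higher and 273 lower became 175 and 154 with no filter, 640 and 621 with DESeq2, 1043 and 940 with the random block (correlation -0.21), 120 and 77 with summed counts and 546 and 411 with the late neutrophil covariate. They became 27 and 18, 178 and 118, 56 and 36, and 24 and 8 without title numbers 1, 2, 3 and 4, and 137 to 419 and 103 to 320 without 1 clone. Other pathway genes called higher, 1 at first, were 2 with the stricter filter, DESeq2, limma-voom, the covariate or without title number 2, 4 with the random block, 0 without title numbers 1, 3 or 4, and 1 to 2 without 1 clone. Those called lower, 5 at first, were 3 with no filter, 10 with DESeq2, 13 with the random block, 2 with summed counts, 1 without title numbers 1, 3 or 4, 3 without title number 2, and 2 to 5 without 1 clone. Signs turned only for uncalled members near 0: Cpt1a (without 1 clone -0.0755 to 0.12, with the covariate -0.10), Acadvl (without 1 clone -0.0072 to 0.11, without title numbers 1 and 3 -0.0398 and -0.0412), Etfb (without 1 clone -0.0024 to 0.068, without title number 1 -0.0104), Etfa (without 1 clone -0.0379 to 0.0009, without title numbers 1 and 4 0.0114 and 0.0138) and Acadm (without title number 4 0.0043). The cause of these changes was not tested. No paired analysis was possible because the genotypes share no clone or title number. Depth limits Hadhb most, with 356 to 725 reads per library.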
